A study of Mus musculus with 43 samples.

Results

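9 genes of meiotic strand exchange were followed here: Brca2, Brca1, Dmc1, Meiob, Spata22, Hsf2bp, Mnd1, Psmc3ip and Rad54l. Each was matched by its GENCODE vM21 symbol to its gene identifier in the RNA tables, and they are 9 of 55401 gene identifiers. RNA depth was 12396345 to 18547103 counts per library. The study asked what the arginine methyltransferase Prmt1 does in mouse spermatogonia, the mitotic cells of the testis that give rise to spermatocytes. The RNA libraries came from males at postnatal day 7 (P7). Bulk RNA-seq was made from total testis RNA with 3 WT and 3 Prmt1-dKO libraries, and Smart-seq2 from sorted EGFP-positive spermatogonia with 2 WT and 2 Prmt1-dKO libraries. Prmt1-dKO denotes Ddx4-CreERT2; Prmt1 lox/lox mice injected with tamoxifen on 3 days, in which the germ-cell gene Ddx4 drives the Cre, so that somatic cells of the testis keep Prmt1. The methods give the sorted controls as heterozygous carriers of the same EGFP-CreERT2 allele (Prmt1 +/lox), called WT as in the labels. The text of the study gives tamoxifen doses before the P7 collection for RNA without saying whether the WT animals had them. It names no further genotype for the bulk WT controls. Whether treatment differed together with genotype is therefore not known here. Peak lists came from CUT&Tag, which cuts out the DNA beside an antibody-bound histone mark, for 7 marks in WT C57BL/6J testis cells at P7 and P14, with 2 or 3 lists per mark and age, and for H4R3me2s also in 2 Prmt1-dKO lists at P7. Tubule cells for these lists were passed through a strainer and not sorted. The labels name no animal behind a library or list, so p-values measure the spread between these samples, which may in part be technical.

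Homologous recombination in meiosis starts with programmed DNA breaks whose resected ends are coated by RPA and then loaded with recombinase, in meiosis DMC1. BRCA2 brings recombinase to the breaks, and in germ cells it is itself brought there by HSF2BP (also called MEILB2) with its partner BRME1. MEIOB and SPATA22 form a complex on the single-stranded DNA with RPA, HOP2 (the product of Psmc3ip) and MND1 help the recombinase filament to capture the homologous duplex, RAD54L is a translocase that remodels duplex DNA during strand invasion, and BRCA1 acts upstream in end resection and in BRCA2 recruitment. Brca1, Brca2 and Rad54l also serve break repair in dividing somatic cells, whereas Dmc1, Meiob, Spata22, Hsf2bp, Mnd1 and Psmc3ip are best known from germ cells.

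The members lie on 6 chromosomes of GRCm38: Brca2 at chr5:150522630-150570329 on the plus strand, Brca1 at chr11:101488764-101551955, Psmc3ip at chr11:101091823-101095436, Dmc1 at chr15:79561497-79605109, Hsf2bp at chr17:31944769-32036349, Mnd1 at chr3:84087933-84155786 and Rad54l at chr4:116094264-116123690 on the minus strand, and Meiob at chr17:24804289-24839788 and Spata22 at chr11:73329741-73346044 on the plus strand. Spata22 and Mnd1 have 1 annotated transcript start each, Meiob 3, Psmc3ip 4, Dmc1 5, Hsf2bp and Rad54l 6, Brca1 7 and Brca2 12, the last spread over 45958 bp. 4 members share their promoter region with another protein-coding gene on the opposite strand. Brca1 and Nbr1 start 194 bp apart, Spata22 and Aspa 145 bp, Rad54l and Pomgnt1 150 bp, and Hsf2bp and Rrp1b 42 bp with overlapping bodies. A peak there belongs to both genes. Spata22 also shares its start and strand with the overlapping gene model Gm49340, which took 41.6 counts in Smart-seq2 WT library 1, 2.04 in bulk Prmt1-dKO library 1 and none elsewhere, so that Spata22 counts could be split.

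Upstream sequence was read from RefSeq (GRCm38.p6) for 8 members, all but Meiob. 4 stretches are printed 5′ to 3′ up to the base before the RefSeq start, as context for the promoter peaks described further on. They are those of Brca2, Brca1, Dmc1 and Spata22. Brca2 is the member with the highest level in sorted WT cells. At Brca1 the strongest H3K4me3 summit of each list lay on the side of Nbr1. Dmc1 and Spata22 had H3K27ac in both P14 lists and in no P7 list. Brca2 is chr5:150522371-150522620, Brca1 is chr11:101551956-101552148 (all the bases up to the start of Nbr1), Dmc1 is chr15:79605110-79605359 and Spata22 is chr11:73329597-73329740 (all the bases up to the start of Aspa). Capitals mark matches, on either strand, to TGACGTCA (the CRE palindrome), GCGGGAA (an E2F-like word), CCAAT and GGGCGG (a GC box).
Brca2: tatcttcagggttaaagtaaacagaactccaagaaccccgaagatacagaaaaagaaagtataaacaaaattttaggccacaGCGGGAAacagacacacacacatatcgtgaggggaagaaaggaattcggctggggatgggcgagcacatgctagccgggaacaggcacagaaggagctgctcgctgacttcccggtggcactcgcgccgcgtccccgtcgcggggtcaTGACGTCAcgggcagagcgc
Brca1: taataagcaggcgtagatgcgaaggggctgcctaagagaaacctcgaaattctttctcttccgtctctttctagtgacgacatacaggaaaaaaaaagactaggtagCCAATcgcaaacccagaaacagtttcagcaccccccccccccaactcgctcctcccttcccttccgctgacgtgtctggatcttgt
Dmc1: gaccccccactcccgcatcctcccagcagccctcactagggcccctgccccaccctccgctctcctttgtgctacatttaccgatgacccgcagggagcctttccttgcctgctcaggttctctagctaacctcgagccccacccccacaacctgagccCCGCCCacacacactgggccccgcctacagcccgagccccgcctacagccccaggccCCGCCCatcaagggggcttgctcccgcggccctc
Spata22: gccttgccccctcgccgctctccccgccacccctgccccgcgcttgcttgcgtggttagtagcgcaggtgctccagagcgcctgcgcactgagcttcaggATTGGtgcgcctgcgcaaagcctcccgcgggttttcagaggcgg
TGACGTCA stood 20 bases before the Brca2 start and in no other of the 8 members, against 1.55% of the 32851 RefSeq promoters searched over the same 250 bases. GCGGGAA was found upstream of Brca2 and Hsf2bp (3.82% of promoters), CCAAT upstream of Brca1, Spata22, Psmc3ip and Rad54l (33.8%) and GGGCGG upstream of Dmc1, Mnd1 and Rad54l (32.7%). The number of CpG dinucleotides in the 250 bases was 8 for Mnd1, 10 for Rad54l, 12 for Brca1 and Dmc1, 14 for Hsf2bp, 18 for Brca2, 19 for Psmc3ip and 22 for Spata22, and the median over all promoters was 6. The RefSeq start of Hsf2bp is 1841 bp after its 5′-most GENCODE start, so its 250 bases lie within the gene. These matches are a description of letters and not of binding.

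To see how strongly the members were expressed, their levels were compared as TPM, which corrects for length. In sorted WT cells Brca2 led with 200.4 ± 13.4 TPM (SD, n = 2), followed by Hsf2bp with 142.1 ± 42.9 and Psmc3ip with 85.8 ± 10.9. The ranges of those 3 did not overlap. Brca1 (39.9), Rad54l (32.4), Dmc1 (31.8), Mnd1 (16.6) and Meiob (15.3) came next as mean TPM, and each overlapped its neighbour in that order, while Spata22 was lowest at 9.0 ± 3.37 TPM. In sorted Prmt1-dKO cells the order was Psmc3ip (62.0 ± 4.59 TPM), Brca2 (51.4 ± 3.78), Hsf2bp (41.9 ± 0.686), Rad54l (34.4), Mnd1 (22.1), Dmc1 (20.6), Brca1 (18.9), Spata22 (1.03) and Meiob (0.225), and none of the 8 neighbouring pairs overlapped. As CPM per kilobase 6 of the 9 kept their place there, and Mnd1 stood in place 7 instead of 5, below Dmc1 and Brca1.

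Whole testis showed another order. In bulk WT libraries Brca2 was again highest at 35.3 ± 2.27 TPM (SD, n = 3), and Psmc3ip (26.7 ± 1.85) and Rad54l (25.0 ± 2.33) overlapped each other. Brca1 had 18.3 TPM, Mnd1 15.0, Dmc1 11 and Hsf2bp 8.21, whereas Spata22 at 2.47 and Meiob at 0.197 TPM were the lowest. Hsf2bp thus stood in place 7 of the 9 in whole WT testis and in place 2 in sorted WT cells. In bulk Prmt1-dKO testes Brca2 stayed highest at 42.4 ± 4.41 TPM and Meiob lowest at 0.633 ± 0.454, and 5 of the 8 neighbouring pairs overlapped. Levels are given within each assay, since the assays differ in material and chemistry.

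Comparing sorted Prmt1-dKO with sorted WT cells asks what loss of Prmt1 did to these genes in the germ cells themselves. 4 members stood far lower in every Prmt1-dKO library: Meiob, Spata22, Hsf2bp and Brca2, that is the BRCA2 recruiter and its client and both subunits of the RPA-associated complex. Expected counts of Meiob were 307 and 425 in the WT libraries against 3 and 6 in Prmt1-dKO, or 15.9 and 22.2 against 0.193 and 0.397 CPM, which are counts scaled to the size of the library. The depth-scaled ratio of summed counts, WT over Prmt1-dKO, was 72.9 (exact 95% counting interval 38.2 to 160.1, which covers counting error only). Its partner Spata22 had 186.2 and 108 counts in WT against 14 and 17 in Prmt1-dKO, a ratio of 8.50 (5.86 to 12.7). Both subunits therefore differed in the same direction with no overlap of the libraries.

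Hsf2bp was among the abundant members, with 185.3 and 141.8 CPM in WT and 55.1 and 47.1 CPM in Prmt1-dKO. The log2 fold change was -1.68 ± 0.23 (SE). Brca2 had 387 and 347 CPM in WT, the highest values of any member, and 140.6 and 122.1 CPM in Prmt1-dKO, with a log2 fold change of -1.48 ± 0.16 (SE). For these 2 genes the gap between the genotypes was larger than the spread within either. Hsf2bp overlaps Rrp1b on the opposite strand, and reads of the 2 cannot be told apart where counting ignores strand. The fitted log2 fold changes of Meiob and Spata22 were -5.98 ± 1.06 and -2.91 ± 1.09 (SE), with wider errors than those of Hsf2bp and Brca2.

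With 2 libraries per genotype, edgeR's quasi-likelihood test called no gene at all at FDR below 0.05 and at least 2-fold, lower (0% of 16443) or higher (0%), and hence no member. Adjusted p-values by that test were 0.0774, the smallest of any gene, for Brca2, Meiob and Hsf2bp and 0.207 for Spata22. Before adjustment, with p below 0.05 and a change of 2-fold or more, all 4 were lower and no member was higher, against 4.12% and 13.8% of all genes. DESeq2 called the same 4 members lower and none higher, against 3.9% and 7.28% of genes. Its adjusted p was 3.65e-17 for Brca2, 1.62e-08 for Hsf2bp and 0.0323 for Spata22. Meiob, with 3 and 6 counts in Prmt1-dKO, entered these tests through its WT libraries. Its place in the counts of members is therefore given as a value only. Without WT library 1 edgeR called 4 members lower and none higher (12% and 29.5% of all genes), and without WT library 2 it called 4 lower and 1, Mnd1, higher (11.2% and 22.5%), but the spread then comes from the Prmt1-dKO pair alone and the lone WT library is assumed to vary like it. With 1 Prmt1-dKO library left out it called no gene. Including Psmc3ip, 5 members had both Prmt1-dKO libraries below both WT libraries and none had both above, where 20.3% and 36.3% of all genes did so.

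The other 5 members were not resolved in sorted cells, and the WT libraries of 4 of them lay far apart. Dmc1, the meiotic recombinase, had 31.9 and 67.6 CPM in WT and 38.0 and 34.7 CPM in Prmt1-dKO (log2 fold change -0.45 ± 0.45, FDR 0.658 by edgeR). Mnd1 had 2.12 and 15.7 CPM in WT and 14.5 and 12.8 CPM in Prmt1-dKO. Brca1 had 58.1 and 117.6 CPM in WT against 71.3 and 67.2 CPM, and Rad54l 84.0 and 51.8 against 83.6 and 86.3 CPM. In each of these 4 genes the Prmt1-dKO libraries lay close together and inside or next to the WT range. Leaving out WT library 2 turned the log2 fold change of Dmc1 to 0.20 and that of Brca1 to 0.27, and leaving out WT library 1 turned that of Mnd1 to -0.19. In the opposite leave-outs edgeR passed 0.05 for Mnd1 (2.7, FDR 0.000257 without WT library 2) and, without WT library 1, for Brca1 (-0.75, FDR 0.00505), Dmc1 (-0.88, FDR 0.00654) and Rad54l (0.73, FDR 0.0127), so these genes take their value from the choice of WT library. Psmc3ip, the partner of Mnd1, had 54.2 and 64.1 CPM in WT and 49.4 and 49.8 CPM in Prmt1-dKO. Its log2 fold change was -0.25 ± 0.25 with an FDR of 0.648 by edgeR. It moved to -0.35 without WT library 1 and to -0.11 without WT library 2. The median log2 fold change over the 9 members was -0.45, and over all 16443 genes tested 0.15.

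**Figure D1:**
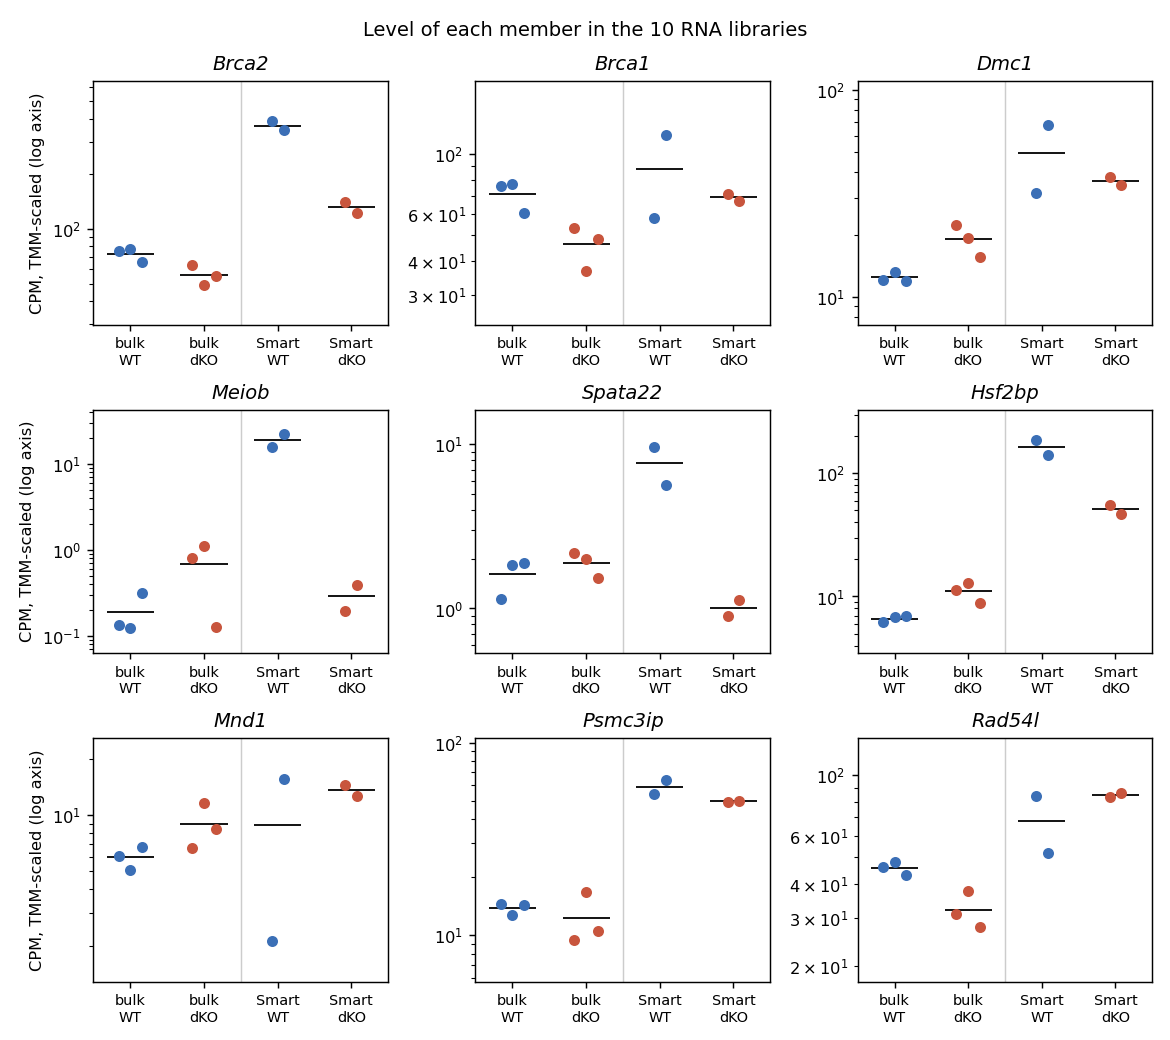
Level of each of the 9 genes as CPM after TMM scaling, on a log axis of its own for each gene, in every library: points are libraries (WT blue, Prmt1-dKO red) and lines are group means. In Smart-seq2 the WT and Prmt1-dKO points of Brca2, Meiob, Spata22 and Hsf2bp are far apart, whereas the WT points of Brca1, Dmc1, Mnd1 and Rad54l are spread around or beside the Prmt1-dKO points.

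Whole testes were compared next. None of the 8 members tested was called at FDR below 0.05 and at least 2-fold by edgeR, lower or higher, against 1.78% and 5.32% of the 16554 genes tested. Before adjustment, with p below 0.05 and 2-fold, the count was also 0 in both directions, and DESeq2 likewise called none (1.34% and 6.18% of genes). At FDR below 0.05 and any fold change, 2 members were lower and 2 higher, where 8.51% and 10.6% of all genes were. Brca1 had 76.3, 77.3 and 60.3 CPM in WT and 53.1, 36.9 and 48.5 CPM in Prmt1-dKO (log2 fold change -0.63 ± 0.16, FDR 0.0261 by edgeR). Rad54l had 46.0, 47.9 and 42.9 CPM in WT and 30.9, 37.8 and 27.7 CPM in Prmt1-dKO (-0.51 ± 0.13, FDR 0.0302). Every Prmt1-dKO testis was below every WT testis for both genes.

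Dmc1 and Hsf2bp, both germ-cell genes, differed in the opposite direction. For Dmc1 the WT values were 12.1, 13.2 and 12.0 CPM and the Prmt1-dKO values 22.3, 19.4 and 15.7 CPM, a log2 fold change of 0.62 ± 0.16 with an FDR of 0.0269 by edgeR. For Hsf2bp the values were 6.15, 6.80 and 6.91 CPM in WT and 11.2, 12.9 and 8.88 CPM in Prmt1-dKO, a log2 fold change of 0.73 ± 0.18 with an FDR of 0.0255. Groups did not overlap for either gene. All 4 adjusted p-values passed 0.05 without Prmt1-dKO library 2 (0.000402 to 0.0196), and none did without WT library 1 (0.0965 to 0.113) or without WT library 2 (0.0844 to 0.109). Of the 4, Brca1 alone passed without WT library 3 (0.0365, the others 0.0593 to 0.101) and without Prmt1-dKO library 1 (0.0293, the others 0.0617 to 0.0803), but it did not pass without Prmt1-dKO library 3 (0.0508), where Dmc1 and Hsf2bp passed (0.014 and 0.0141) and Rad54l did not (0.0687).

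Brca2 had 75.0, 77.2 and 65.3 CPM in WT testes and 63.4, 49.4 and 54.7 CPM in Prmt1-dKO testes, with no overlap, a log2 fold change of -0.38 ± 0.13 and an FDR of 0.0689 by edgeR (0.0489 by DESeq2). Mnd1 had 6.09, 5.09 and 6.79 CPM in WT and 6.64, 11.7 and 8.50 CPM in Prmt1-dKO (FDR 0.121), with overlapping groups. Psmc3ip (FDR 0.584) and Spata22 (FDR 0.673) overlapped as well, with log2 fold changes of -0.19 and 0.22. Without Prmt1-dKO library 2, Psmc3ip was at -0.47 (FDR 0.0241 by edgeR), and it ranged up to -0.05 without library 1, while Spata22 ranged from 0.01 without WT library 1 to 0.36 without Prmt1-dKO library 3. Meiob was too sparse to be tested, with 2, 2 and 5 counts in WT and 11, 14 and 2 in Prmt1-dKO. In all, 3 members had every Prmt1-dKO testis below every WT testis and 2 had every one above, against 19.9% and 20.9% of genes, and the median log2 fold change was 0.02 over the 8 members and 0.02 over all genes.

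Fewer cells of a type and less RNA per cell cannot be told apart in these bulk tissues. Summed levels of cell-type markers differed beside the members. Proliferation markers were at 1460 to 1620 TPM in WT and 859.9 to 1014 TPM in Prmt1-dKO testes, with 13 of 14 genes below in every library on the CPM scale. Leydig markers were at 789.2 to 891 and 284.6 to 322.8 TPM, with 4 of 7 called lower by edgeR, Sertoli markers at 6749 to 7292 and 4724 to 5232 TPM, with 1 of 11 called lower, and peritubular myoid markers at 1296 to 1403 and 520.6 to 955.4 TPM, with 3 of 6 called lower. Genes of meiotic onset and prophase summed to 474.6 to 609.2 and 482.4 to 592.3 TPM, with 15 of 21 above 0 in log2 fold change, 8 above in every library and 1 called higher. Macrophage markers were at 112.6 to 127.7 and 138.5 to 163.8 TPM, with 1 of 8 called higher, and germ-cell markers at 1742 to 2033 and 1707 to 1770 TPM, with none called. Their part in the bulk differences was not tested.

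The sorted cells were checked in the same way. They carried germ-cell markers at 3472 to 3551 TPM in WT and 2920 to 2937 TPM in Prmt1-dKO. Of the 14 genes 12 were above 0 in log2 fold change, with a median of 0.38, and Tex101 alone was at 1576 and 1591 TPM in WT against 650.6 and 627.6 TPM. Dazl, a gene of germ cells in general, was at 322.8 and 367.9 TPM in WT. Genes of meiotic prophase were high in the sorted WT cells, although the label names spermatogonia, with Sycp1 at 287.7 and 289 TPM and Syce3 at 568.7 and 489.8 TPM. That list of meiotic onset and prophase was at 2363 to 2697 TPM in WT and 1168 to 1246 TPM in Prmt1-dKO, with 20 of 20 genes tested below 0 in log2 fold change, a median of -0.86 and 9 of them called lower by DESeq2. Markers of undifferentiated spermatogonia varied in sorted WT cells. Bcl6b was at 0 and 0 and Nanos2 at 0.1 and 0 TPM, whereas Gfra1 was at 9.52 and 19.78 and Zbtb16 at 24.71 and 0.83 TPM. The list summed to 55.1 to 59.2 TPM in WT and 119.8 to 119.9 TPM in Prmt1-dKO. On the CPM scale 9 of 10 genes were above in both Prmt1-dKO libraries, but 6 of 10 in TPM. Macrophage markers were at 0 to 5.02 TPM in WT, where Cd68, Adgre1, Csf1r, Lyz2, C1qa, C1qb and Mrc1 were listed at 0 in both libraries, and at 52.4 to 56.4 TPM in Prmt1-dKO, where Adgre1 was still at 0. Sertoli markers were at 318.9 to 334.1 and 430.3 to 611.1 TPM. Proliferation markers were at 2169 to 2362 TPM in WT and 1599 to 1623 TPM in Prmt1-dKO. On the CPM scale 6 of those 14 genes were below in both Prmt1-dKO libraries and 3 above. What share of the members' differences goes with these shifts was not tested. The summed level of the 9 members was 552.8 to 593.7 TPM in sorted WT and 246.5 to 258.4 TPM in sorted Prmt1-dKO cells.

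Prmt1 itself, the deleted gene, had 216.4 and 149.2 CPM in sorted WT and 112.4 and 86.5 CPM in sorted Prmt1-dKO cells (log2 fold change -0.88 ± 0.26, FDR 0.133 by edgeR), and 236.8, 218.9 and 246.8 against 145.7, 198.8 and 157.6 CPM in whole testes (-0.48 ± 0.13, FDR 0.0334). Each Prmt1-dKO library was below each WT library of its assay. In whole testes the FDR was 0.0696 to 0.105 without any 1 library other than Prmt1-dKO library 2 (0.00015 without that one), and 0.0814 with the replicate block, and in sorted cells the log2 fold change was -0.57 without WT library 1. The deletion removes exons 4 and 5, and counts over the whole gene check the label only in part.

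**Figure D2:**
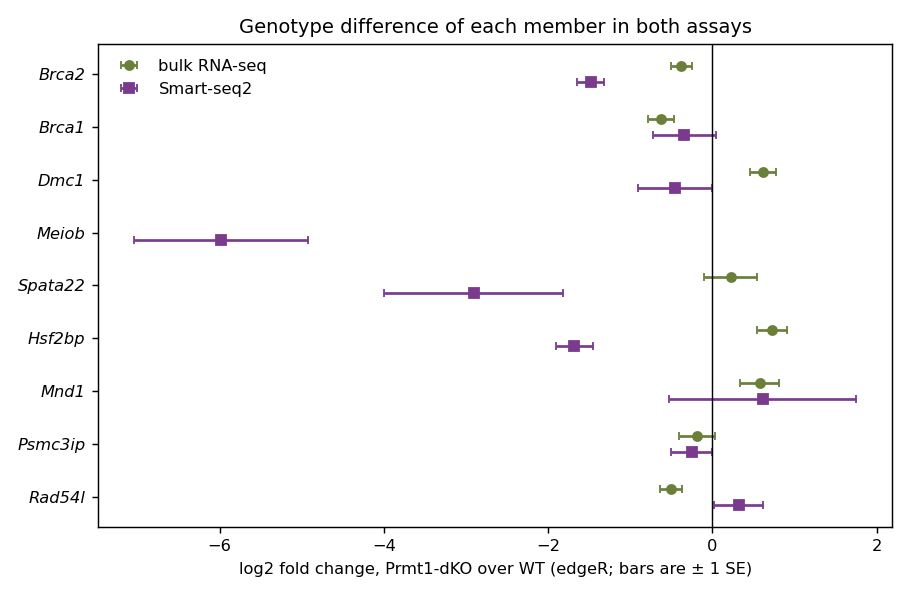
Log2 fold change of Prmt1-dKO over WT for each gene with its standard error, from edgeR, in bulk RNA-seq (circles) and Smart-seq2 (squares); Meiob was not tested in bulk RNA-seq. Hsf2bp lies at 0.73 in whole testes and at -1.68 in sorted cells, and Brca2 at -0.38 and -1.48.

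Because several members pointed in different directions in whole testes and sorted cells, the difference between the assays was tested directly with the interaction of assay and genotype over all 10 libraries. Meiob left aside, it was below 0 at FDR below 0.05 for Hsf2bp, Brca2 and Spata22 and above 0 for no member. Of the 19608 genes tested, 4.24% were below and 14.7% above. Meiob enters this fit through its high counts in sorted WT cells and is given as a value only, since its 2 to 14 counts per bulk library are too few to rest a difference on. The differences were -2.32 ± 0.30 log2 for Hsf2bp (FDR 0.00104 by edgeR), -1.02 ± 0.21 for Brca2 (FDR 0.0109) and -3.04 ± 0.67 for Spata22 (FDR 0.0133). The value of Meiob was -7.67. Hsf2bp had log2 fold changes of 0.73 in whole testes and -1.68 in sorted cells, which lie on opposite sides of 0. For Dmc1 the difference was -0.98 ± 0.45 (FDR 0.167) and for Rad54l 0.92 ± 0.32 (FDR 0.079), neither past the threshold. Without Smart-seq2 WT library 1 both passed, Dmc1 at -1.41 (FDR 0.00153 by edgeR) and Rad54l at 1.33 (FDR 0.00116), and without WT library 2 they were at -0.34 (FDR 0.412) and 0.62 (FDR 0.066). Brca2 missed it without Smart-seq2 Prmt1-dKO library 2 (FDR 0.0572), and without Smart-seq2 WT library 1 there were 5 members below 0 and 1 above (11.4% and 30.2% of all genes), and without WT library 2 there were 4 and 2 (11% and 24.6%). These leave-out counts of members include Meiob, and the differences share every library with the 2 comparisons above.

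The tables also give a mean transcript length weighted by the abundance of each isoform, which is a readout apart from the gene count. Brca2 had 3523, 3976 and 2872 bp in bulk WT and 2575, 1840 and 1885 bp in bulk Prmt1-dKO, with no overlap. TPM divides by this length, and the TPM of Brca2 was higher in bulk Prmt1-dKO (42.4) than in bulk WT (35.3), while its CPM was lower. In sorted cells the order was the reverse, 2510 and 2485 bp in WT and 3128 and 2775 bp in Prmt1-dKO. Brca1 had 1856 bp in sorted WT library 1 and 4349, 3901 and 4375 bp in the other sorted libraries, against 5924 to 6532 bp in whole testes. Brca1 read 44.0 and 35.7 TPM in sorted WT and 19.5 and 18.3 TPM in Prmt1-dKO without overlap, although its CPM overlapped. Spata22 and Mnd1 have a single length each, 1274 and 875 bp, and Dmc1, Meiob, Psmc3ip and Rad54l ranged over at most 1818 to 2213, 1665 to 1774, 1032 to 1085 and 2753 to 3111 bp.

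The wider recombination pathway was read out from a list of 36 further genes: recombinase mediators, recombinase paralogs, RPA subunits, resection factors and helicases. In sorted cells edgeR called none, DESeq2 called 3 lower and 2 higher (3.9% and 7.28% of all genes), and 4 were lower and 2 higher at an unadjusted p below 0.05 and 2-fold (4.12% and 13.8%), so that the higher counts were not above the share of all genes. The median log2 fold change was -0.32. The genes lower in both Prmt1-dKO libraries with the largest differences were Rad51ap2 (46.0 ± 23.8 CPM in WT against 3.47 ± 0.715 in Prmt1-dKO, log2 fold change -3.73), 4930432K21Rik (76.3 ± 13.4 against 14.3 ± 6.04, -2.41) and Rad51b (28.6 ± 12.9 against 6.31 ± 1.28, -2.18). Their adjusted p was 5.52e-07, 7.47e-06 and 0.00934 by DESeq2 and 0.0774, 0.0774 and 0.136 by edgeR. 4930432K21Rik encodes BRME1, the partner of HSF2BP.

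The genes that stood highest were Mcmdc2, a meiotic MCM-domain factor (3.03 ± 2.45 against 20.1 ± 2.37 CPM, 2.73), Bccip, a BRCA2-binding protein (18.4 ± 8.72 against 110.4 ± 12.8 CPM, 2.59) and Abraxas1, of the BRCA1-A complex (22 ± 4.35 against 35.6 ± 4.95 CPM, 0.69). DESeq2 gave adjusted p of 0.0315, 1.91e-06 and 0.364.

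In whole testes edgeR and DESeq2 each called 1 gene of that list higher and none lower, with a median of -0.10. Of all genes the 2 tools called 5.32% and 6.18% higher and 1.78% and 1.34% lower. The gene of the list was Mcmdc2 (0.740 ± 0.394 against 2.35 ± 0.637 CPM, log2 fold change 1.65, FDR 0.0282 by edgeR), which is named because it was the only one. It lost the call without WT library 1, WT library 2 or Prmt1-dKO library 3, where 0 genes were called. At FDR below 0.05 and any fold, 5 were lower and 3 higher, near the 8.51% and 10.6% of all genes. Among genes with a mean of at least 50 counts, the largest non-overlapping differences were those of Fignl1 (-0.77, FDR 0.0157), Bard1, the partner of BRCA1 (-0.62, FDR 0.00958), and Brip1, a BRCA1-bound helicase (-0.48, FDR 0.0289), on the lower side, and of Rad52 (0.61, FDR 0.0119), Zswim7 (0.60, FDR 0.0846) and Abraxas1 (0.51, FDR 0.0437) on the higher side.

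**Figure D3:**
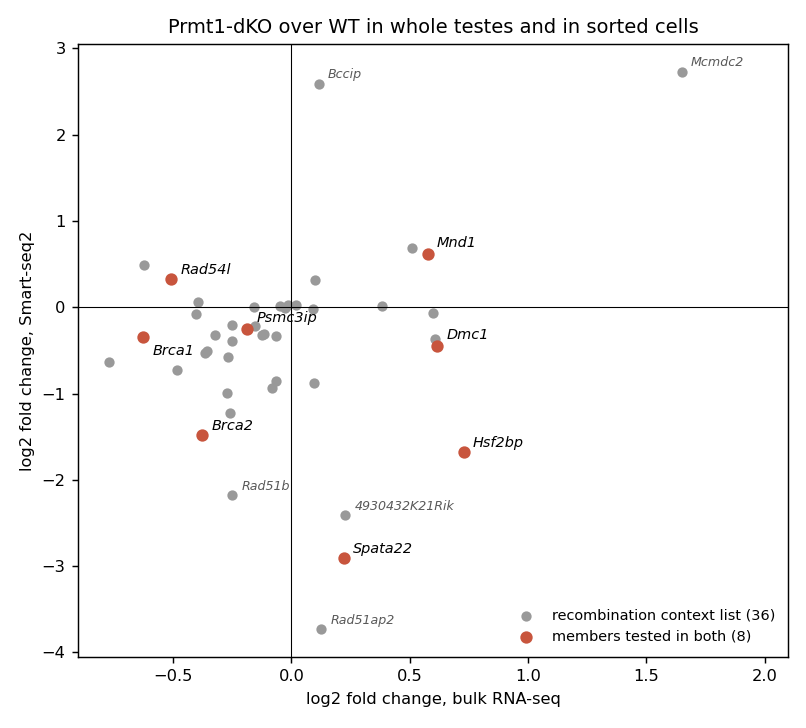
Log2 fold change in Smart-seq2 (vertical) against bulk RNA-seq (horizontal) for the 8 members tested in both assays (red) and the 36 genes of the recombination context list (grey), with both axes on the log2 scale of edgeR. Hsf2bp, Spata22, 4930432K21Rik and Rad51ap2 lie above 0 in whole testes and below -1.6 in sorted cells.

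The genes whose profile was most like that of a member were sought among 11176 genes with a mean of at least 50 counts in each assay, by the correlation of log2 CPM over the 10 libraries after the mean of each assay was taken off. For Brca2 these were Ccser2, Aida and Iws1, each with r = 0.99. For Dmc1 they were Creg1 (0.96), Idnk (0.95) and Myo15 (0.93), and for Meiob Parp2 (0.98), Kmt5c (0.97) and Tsen54 (0.97). Among the members, Meiob, Spata22 and Hsf2bp were most alike, with r of 0.93, 0.93 and 0.91 for the 3 pairs, Brca2 had 0.86 with Spata22, and Dmc1 and Rad54l ran opposite at -0.82. The libraries share genotype and sort, and such values are a description without a test.

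The promoters were then examined in the peak lists. A member was counted in a list where a peak summit lay within 3000 bp of any of its transcript starts. H3K4me3 marks active and poised promoters. It was present at 8 of the 9 members in both P7 lists and at all 9 in both P14 lists. The mean share of 21951 protein-coding genes over the lists was 62.2% and 65.1%. All 36 genes of the recombination context list had it in every list of both ages. The member without it at P7 was Spata22. It had no H3K4me3 summit in either P7 list, and at P14 it had peaks of 633 and 833 bp with summits 122 and 118 bp after the start, at 8.71- and 7.84-fold enrichment. A promoter summit in both P14 lists and no P7 list was found for 2.02% of protein-coding genes. For the other 8 members the summits of the strongest H3K4me3 peak were farthest from the 5′-most start for Brca1, where they lay at -1033 and -1036 bp at P7 and at -526 and -1033 bp at P14, on the Nbr1 side of the shared promoter (negative distances are upstream).

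H3K27ac, a mark of active promoters and enhancers, was at more members at P14 than at P7. Its lists reached down to a −log10 p of 2.3 and those of H3K4me3 to 3.41, so the 2 marks were listed at unlike thresholds. At P7 each H3K27ac list held 5 members, and at P14 each held all 9, where the mean share of protein-coding genes was 39.4% and 55.8%. Of the 36 context genes, 31 and 34 had it in the P7 lists and 36 and 35 in the P14 lists. Dmc1 and Spata22 had a summit in both P14 lists and in no P7 list, as 7.92% of protein-coding genes did. At Dmc1 the P14 peaks spanned 1361 bp with a summit 175 bp after the 5′-most start in list 1, and 3 separate peaks of 200 to 249 bp had summits from -375 to 588 bp in list 2. At Spata22 the P14 summits were at 118 and -423 bp from the start, the latter on the Aspa side. Brca2, Brca1 and Hsf2bp had H3K27ac in both P7 lists, and Meiob, Mnd1, Psmc3ip and Rad54l in 1 of the 2, for Rad54l only at an internal start.

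Hsf2bp had peaks near an annotated start within the gene. RefSeq places its start 1841 bp inside the 5′-most GENCODE start, which itself lies in the promoter shared with Rrp1b. H3K4me3 had summits 1963 and 1958 bp after the 5′-most start in both P14 lists, beside those at the shared promoter at -185 and -202 bp, and only the shared promoter had one at P7 (-507 and -252 bp). H3K27ac summits near the internal start were found at 2063 and 1800 bp in the P14 lists and at 1687 bp in 1 P7 list. Whether the internal start was used in P14 RNA was not tested, as the RNA libraries are of P7.

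**Figure D4:**
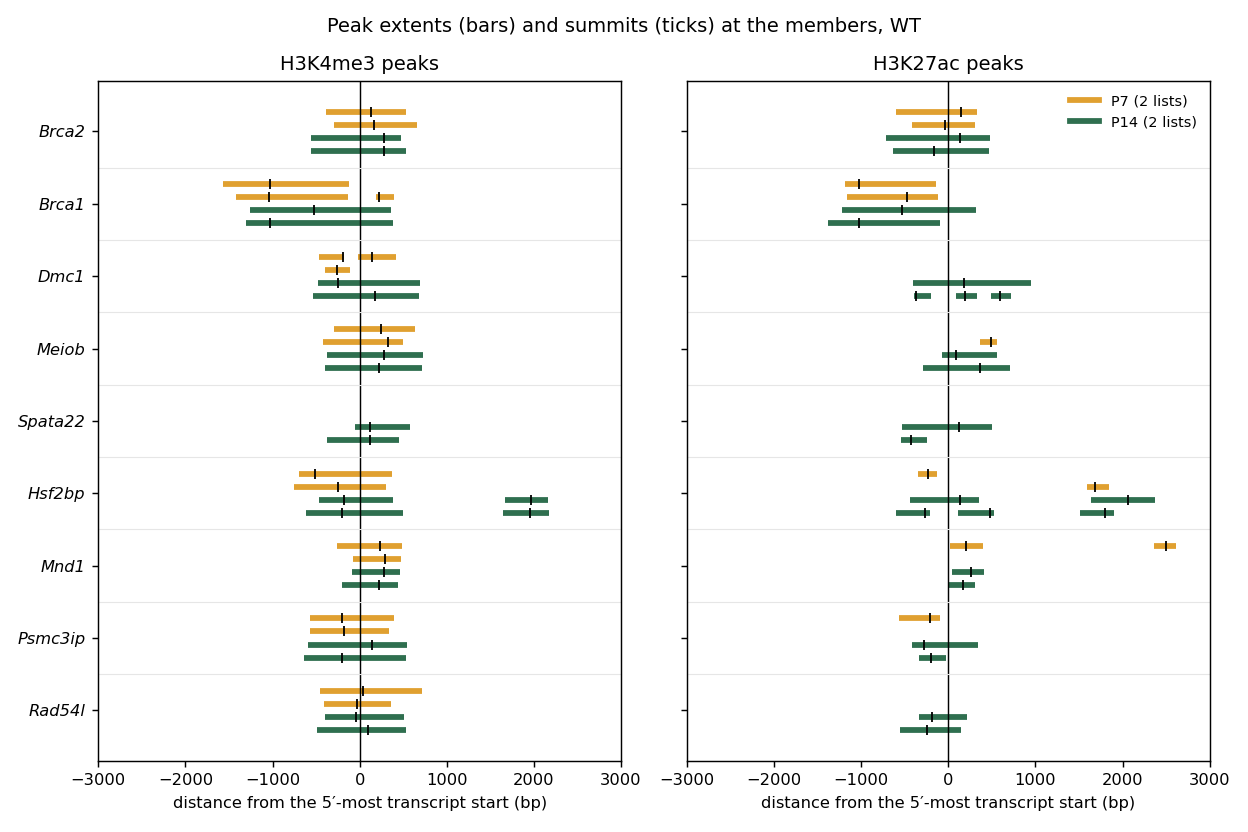
H3K4me3 (left) and H3K27ac (right) peaks within 3000 bp of the 5′-most transcript start of each gene, in base pairs along the direction of transcription, with peak extents as bars, summits as ticks, P7 lists in yellow and P14 lists in green. Spata22 has no bar in the P7 rows of either mark, Dmc1 has none in the P7 rows of H3K27ac, and Hsf2bp has a separate H3K4me3 peak with summits at 1963 and 1958 bp at P14 alone.

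The arginine marks were read in the same way. H4R3me2a, the asymmetric mark laid down chiefly by Prmt1, was found at 2.67 ± 0.58 members per list at P7 (SD, n = 3) and at 6.33 ± 0.58 at P14, while the share of protein-coding genes was 19.8% and 48.4%. No member had it in all 3 P7 lists, and Meiob, Mnd1, Psmc3ip and Rad54l had it in 2 of them. At P14 Meiob, Mnd1 and Rad54l had it in all 3 lists, and Brca2 and Spata22 in 1. H4R3me2a summits at Meiob lay 153 to 356 bp after its 5′-most start in all 5 lists that held it. Those at Rad54l in P7 lists were all at internal starts, and 1 of the 3 P14 lists had one within 3000 bp of its 5′-most start.

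H3R2me2a was at 3.5 ± 0.71 members per list at P7 and 6.5 ± 0.71 at P14 (n = 2), where the mean share of protein-coding genes was 24.2% and 59.9%. H3R8me2a was at 1.5 ± 0.71 and 5.5 ± 0.71 members, with 21.3% and 45.2% of protein-coding genes. H4R3me1 was at 5.0 ± 1.41 and 4.0 ± 0 members, while the share of protein-coding genes was higher at P14, at 23.8% and 41.8%. Dmc1 and Hsf2bp had H3R2me2a in both P14 lists and in no P7 list, as 21.3% of protein-coding genes did. Conversely Brca2 and Rad54l had H4R3me1 in both P7 lists and in no P14 list, which was the case for 0.834% of protein-coding genes. The 3 Brca2 summits lay at 28220 bp from the 5′-most start in list 1 and at -2313 and 8121 bp in list 2. The lists thus shared no peak, none was within 1000 bp of any start, and the fold enrichments were 2.40 to 3.62. Those of Rad54l lay at 12754 and 3500 bp in list 1 and at 23025 and -576 bp in list 2, again with no shared peak. With 12 and 6 annotated starts, Brca2 and Rad54l have more windows that can hold a summit than a gene with a single start. The numbers of members were compared without a test, as each group has 2 or 3 lists.

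The P14 lists of most marks were longer than those at P7, for H4R3me2a 39597 to 44836 peaks against 16995 to 18722 and for H3K27ac 37984 to 45817 against 21974 to 23780. When the lists were cut to the length of the shortest by p-value, the gain of members from P7 to P14 fell from 3.67 to 0.33 for H4R3me2a, from 3.0 to 1.0 for H3R2me2a and from 4.0 to 1.0 for H3R8me2a. It stayed at 4.0 for H3K27ac and at 1.0 for H3K4me3. It was 3.0 instead of 2.5 for H4R3me2s and -1.5 instead of -1.0 for H4R3me1. The labels give the P14 cells as spermatogonia in the title and as spermatocytes in the cell type field, and a change in cell makeup and a change within a cell type cannot be told apart between the ages.

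H4R3me2s, the symmetric counterpart, was the mark profiled in both genotypes. In WT lists at P7 it was found at 1 and 4 members, in Prmt1-dKO lists at 3 and 3, and at P14 at 5 in each of 3 lists. The mean share of protein-coding genes was 33.4% in WT and 25.3% in Prmt1-dKO lists at P7 and 35.9% at P14. Brca1 was the single member with a summit in every P7 list of both genotypes and in all 3 P14 lists. No other member was found in both lists of either genotype, and none was in every list of one genotype and no list of the other, as 1.9% (Prmt1-dKO alone) and 5.54% (WT alone) of protein-coding genes were. The difference of 0.5 members between genotypes was smaller than the spread of the WT lists (SD 2.12), which held 19981 and 36145 peaks. The peak names in the 3 lists labelled P14 for this mark begin with SD17R, where those of the WT lists at P7 begin with SD7R. The label was followed, and the age of these 3 lists is in doubt.

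**Figure D5:**
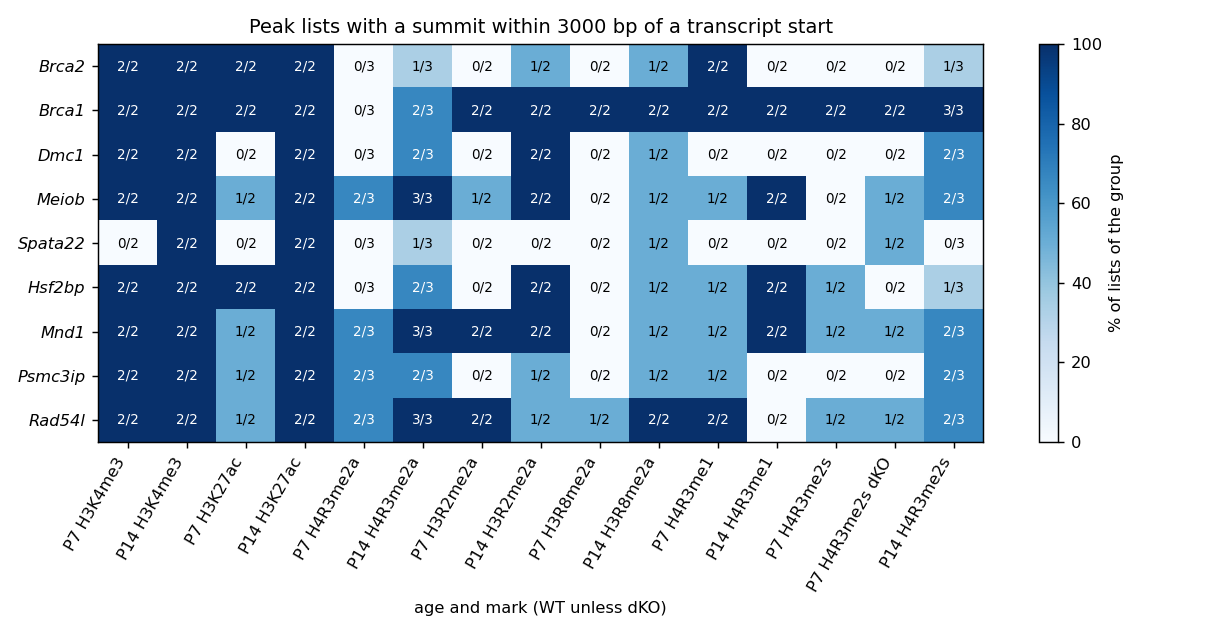
Number of peak lists of each group with a summit within 3000 bp of a transcript start, for the 9 genes (rows) and the 15 groups of age, mark and genotype (columns); shading gives the percentage of the lists of the group. The H3K4me3 and H3K27ac columns at P14 are full for all 9 genes, and Spata22 is empty at P7 in every WT column.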

How the data were processed

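10 bulk and Smart-seq2 RNA libraries and 33 CUT&Tag peak lists were used. For RNA, the authors aligned reads with STAR to mm10 and deposited RSEM gene tables with expected counts, TPM, FPKM (not used here) and lengths. For CUT&Tag, the authors trimmed reads with fastp 0.23.2 and called peaks for each sample with MACS2 2.1.0. The deposited lists give fold enrichment, −log10 p and −log10 q per peak, and only peaks past the caller's threshold. The members and gene lists were chosen with earlier results of these data known.

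Expected counts were rounded, filtered with filterByExpr, scaled by TMM and tested with edgeR 4.0.16 (quasi-likelihood, R 4.3.3) over all genes, with Benjamini-Hochberg adjustment. A call needed FDR below 0.05 and at least 2-fold. DESeq2 1.42.0 was an alternative. Totals were 12396345 to 16598249 counts per bulk and 15610392 to 18547103 per Smart-seq2 library, and intervals cover counting error only. No depth stands behind the peak lists. Named genes were all members and Prmt1, up to 3 lower and 3 higher context genes per assay with non-overlapping libraries and a mean of at least 50 counts, and the 3 genes most correlated with Brca2, Dmc1 and Meiob. Mcmdc2 in bulk RNA-seq falls outside that rule and was named after its values were seen. Other alternatives were RLE scaling, no filter, a replicate block, leaving out each replicate, and for peaks a 1000 bp window, q of at most 0.01, any overlap and equal list length. Of 55401 gene identifiers 55141 matched GENCODE vM21. The procedure was tested on simulated data.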

Additional observations from a re-analysis of the deposited data

Results flagged for a closer look

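Brca2, Spata22 and Hsf2bp differed between whole testes and sorted cells in the genotype difference, by a test of the interaction of assay and genotype with edgeR. The difference, Smart-seq2 minus bulk RNA-seq on the log2 scale, was -1.02 for Brca2, -3.04 for Spata22 and -2.32 for Hsf2bp. Meiob was flagged too, at -7.67, and is given as a value only. Brca2 had log2 fold changes below 0 in both assays on the scale of counts, though its TPM was higher in whole Prmt1-dKO testes, whereas Hsf2bp and Spata22 had log2 fold changes above 0 in whole testes. Meiob, with 2 to 14 counts per library in whole testes, enters that test through its high counts in sorted WT cells, and Spata22 also has few counts in whole testes. Material and library chemistry differ between the assays together, and their parts cannot be told apart.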

How the results depend on the processing

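At FDR below 0.05 and any fold change, 2 members were lower and 2 higher in whole testes instead of 0 and 0. DESeq2 called 4 members and 3 context genes lower and 2 context genes higher in sorted cells, where edgeR called 0. When single libraries were left out, the members called were 0 to 4 lower and 0 to 1 higher in sorted cells and 0 to 1 higher in whole testes (Meiob, on 2 to 14 counts, without Prmt1-dKO library 3, where 5.22% of all genes were higher), and the context genes were 0 to 8 lower and 0 to 4 higher in sorted cells and 0 to 1 higher in whole testes. The log2 fold changes in sorted cells then ranged from -0.75 to 0.27 for Brca1, -0.88 to 0.20 for Dmc1 and -0.19 to 2.7 for Mnd1. The differences between assays ranged from -0.032 to 0.97 for Brca1, -0.67 to 2.20 for Mnd1 and -0.26 to 0.20 for Psmc3ip, and the number of members above 0 from 0 to 2. For Mnd1 that difference was -0.026 with RLE scaling and -0.027 with DESeq2, and for Psmc3ip -0.11 with RLE scaling, -0.014 with no filter and -0.11 with DESeq2. In the order of levels in sorted WT cells 5 to 6 of the 9 members kept their place. The cause of these shifts was not tested.

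With the replicate number as a block, 0 members were called in either assay and 3 differed between the assays, and the adjusted p of Brca1, Rad54l, Dmc1 and Hsf2bp in whole testes was 0.0556, 0.0559, 0.065 and 0.0653. The deviations of same-numbered libraries correlated at 0.082, -0.221 and -0.119 in whole testes and at 0.018 in sorted cells, so the numbers do not pair the samples.

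For the gain in members with a promoter peak from P7 to P14, lists cut to the shortest gave 0.33 for H4R3me2a, 1.0 for H3R2me2a and 1.0 for H3R8me2a. Peaks with q of at most 0.01 gave 1.0 for H4R3me2a, 4.5 for H3R2me2a, 2.0 for H3R8me2a, 1.5 for H4R3me1, 6.5 for H3K27ac and 1.0 for H4R3me2s. A window of 1000 bp gave 1.5 for H4R3me1 and 5.0 for H3K27ac. H4R3me1 thus changed sign. Leaving out lists gave 1.0 to 4.0 for H4R3me2s. Prmt1-dKO against WT gave -0.5 with 1000 bp, -0.5 with lists cut to the shortest and -1.0 to 2.0 with lists left out. Depth limits Meiob and Spata22, which had few counts in whole testes and in sorted Prmt1-dKO cells.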
